A study of Mus musculus with 12 samples.

Results

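A group of 9 genes of phagocytes and their growth factor axis, Csf1, Csf1r, Tyrobp, Mpeg1, Cd68, Slc11a1, Pla2g7, Lgals1 and Cotl1, was followed through every array of a Foxo1-edited mouse lymphoma line. They were chosen by name from earlier results of these same arrays, for their levels in cells with both Foxo1 alleles knocked out. All probe sets that the platform annotation assigns to them were taken. That gave 9 of the 18194 genes on the array and 20 probe sets. All 20 probe sets lay above the array median in at least 3 arrays. Tyrobp, however, did so on only 2 of the 9 arrays of the other genotypes. It therefore passed only with its arrays of the cells with both alleles knocked out.

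The cells were BL#19, a murine Burkitt lymphoma (BL) line modified by CRISPR/Cas9. FOXO1, a transcription factor of the forkhead family, leaves the nucleus when the kinase AKT phosphorylates it, and T24 is an AKT site. The 4 genotypes were wt+/mt+ (wild-type Foxo1 and Foxo1 T24P), wt-/mt+ (wild-type allele knocked out, T24P kept), wt+/mt- (T24P knocked out, wild type kept) and wt-/mt- (both knocked out), with 3 arrays each. All genotypes share the lymphoma background, and the reference genotype wt+/mt+ itself carries T24P. A description field of the labels speaks of mouse germinal center B cells, while the other fields name the line. The array numbers of the labels run through the series without a shared number, so replicates 1 to 3 of a genotype are named here in that order and pair nothing. Nothing in the labels tells whether arrays of 1 genotype are separate clones or cultures. The p-values therefore cover only the spread among the arrays at hand, and that spread may be technical.

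Macrophages depend on CSF1, a secreted growth factor, which binds the receptor tyrosine kinase CSF1R. They engulf particles into phagosomes that fuse with lysosomes, where transporters, pore-forming proteins and enzymes act on the contents. Burkitt lymphoma is a B cell tumour known for the macrophages scattered among the tumour cells, and several of the genes here are used as stains for such cells, although none of them is restricted to macrophages in every tissue.

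Values are log2 expression per probe set, so a difference of 1 is a doubling, and levels of different probe sets are not set against each other. Array medians lay between 6.08 and 6.25. The brightest Foxo1 probe set was at 10.23, 9.39 and 10.34 in wt-/mt- and at 11.16 to 12.10 on the other 9 arrays, a difference from wt+/mt+ of -1.65 ± 0.23 (SE, limma adjusted p = 0.00122). Foxo1 signal in wt-/mt- thus stayed above the array medians, and FOXO1 protein was not measured here. In wt+/mt-, the 3′ minus 5′ difference of actin probe sets, a sign of RNA quality, was 2.17 and 1.71 in replicates 1 and 2, against 1.06 to 1.29 on the other arrays. Of the spiked control transcripts, BioC, BioD and Cre separated the 6 arrays that keep T24P from the 6 without it. BioB did not, at 9.29 to 9.67 with T24P and 9.24 to 9.85 without. BioC lay at 11.31 to 11.56 with T24P and at 10.53 to 11.06 without, BioD at 12.85 to 13.07 and 11.82 to 12.43, and Cre at 14.85 to 14.96 and 14.41 to 14.67. What set these arrays apart and the loss of T24P cannot be told apart in any comparison between them, which leaves wt-/mt- against wt+/mt- and wt-/mt+ against wt+/mt+ as the comparisons within 1 side of that split. All 14 B cell markers measured lay above the array median on all 12 arrays, led by Ms4a1, Cd79b and Ighm, with mean levels of 14.76, 13.94 and 13.79.

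On their brightest probe sets, Mpeg1, Slc11a1, Tyrobp, Lgals1, Cotl1 and Cd68 were each higher in wt-/mt-, on all 3 arrays, than on any wt+/mt+ array, and Csf1 was lower on all 3. Of all 11458 genes kept, 22.9% were higher without overlap in this comparison and 15.6% lower. Against wt-/mt+, 7 of the 9 genes were higher without overlap (Pla2g7 joins them) beside 17.8% of all genes, and against wt+/mt- 5 were (Mpeg1, Slc11a1, Tyrobp, Cotl1 and Pla2g7) beside 11.8%. Csf1 was lower without overlap in both, beside 17.2% and 13.8% of all genes. The brightest Csf1r probe set overlapped in all 3 comparisons. The genes were chosen with these comparisons known, so the values that involve wt-/mt- are given as a description and were not tested. In bulk RNA, fewer cells of a type and less RNA per cell cannot be told apart, and this holds for every difference below.

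**Figure D1:**
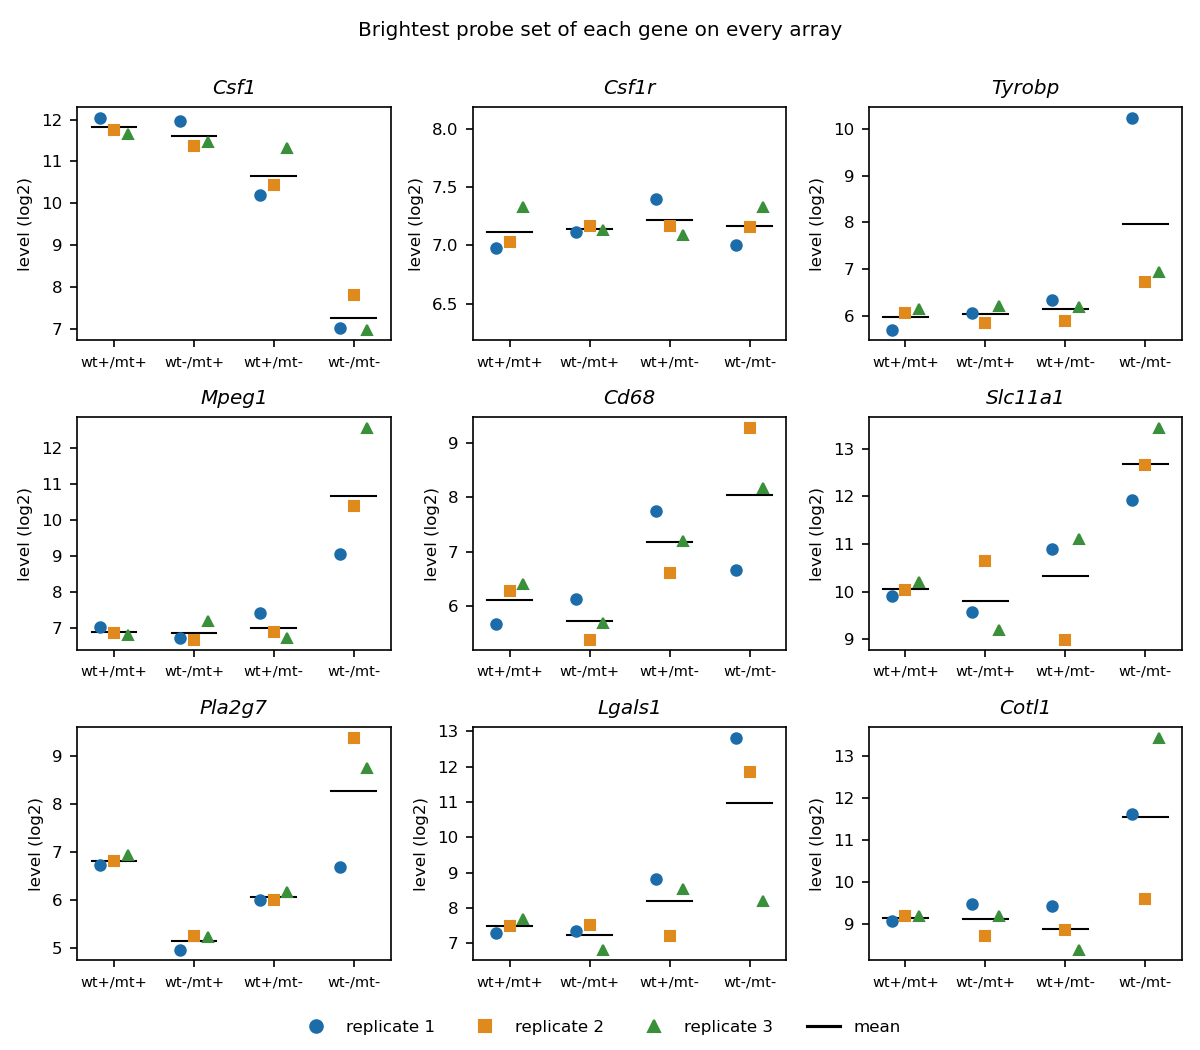
Level (log2) of the brightest probe set of each of the 9 genes on each of the 12 arrays, by genotype, with 1 symbol per replicate and a bar at the genotype mean; the level axes differ between genes. The wt-/mt- points of Mpeg1 (9.04 to 12.56) and Slc11a1 (11.93 to 13.44) lie above all others, those of Csf1 (6.99 to 7.81) lie below all others, and those of Csf1r lie among them.

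Csf1 encodes the growth factor itself and was the only gene of the 9 that was low in wt-/mt-. Its brightest probe set (1460220_a_at) read 12.05, 11.76 and 11.67 in wt+/mt+ and 11.98, 11.37 and 11.46 in wt-/mt+. It read 10.19, 10.44 and 11.33 in wt+/mt-. In wt-/mt- the values were 7.03, 7.81 and 6.99. The arrays of wt-/mt- thus lay together and far below the rest, and wt+/mt- lay between, with its replicate 3 close to the genotypes that keep T24P. The genotype means were 11.82 ± 0.20, 11.60 ± 0.33, 10.66 ± 0.60 and 7.27 ± 0.47 in the same order (SD, n = 3). The mean of wt-/mt- was -4.55 from wt+/mt+ (23.4-fold lower), -4.33 from wt-/mt+ and -3.38 from wt+/mt-.

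The 4 Csf1 probe sets did not all read this difference. From wt+/mt+ to wt-/mt-, 1448914_a_at differed by -2.69, with 8.90, 8.92 and 8.77 against 6.29, 6.00 and 6.24. The dimmer 1425155_x_at differed by -0.93, and its wt-/mt- values of 5.76, 5.61 and 5.83 lay below the array median. The last, 1425154_a_at, stayed between 6.46 and 7.21 on all 12 arrays and differed by 0.15. The probe sets whose names end in _x_at can hold probes that match other transcripts as well, by the naming of the array's maker.

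Csf1r encodes the receptor for CSF1. The brightest of its 3 probe sets (1419873_s_at) read 6.98, 7.03 and 7.33 in wt+/mt+, and 7.12, 7.17 and 7.13 in wt-/mt+. It read 7.39, 7.16 and 7.09 in wt+/mt- and 7.01, 7.16 and 7.33 in wt-/mt-. On this probe set all genotypes overlapped. The difference of wt-/mt- was 0.05 from wt+/mt+, 0.03 from wt-/mt+ and -0.05 from wt+/mt-. The other probe sets, 1423593_a_at and 1419872_at, were 0.29 and 0.18 higher in wt-/mt- than in wt+/mt+. They were 0.28 and 0.26 higher than in wt-/mt+. Arrays did not overlap in these 4 cases, beside 22.9% and 17.8% of all genes that were higher without overlap in these comparisons. Against wt+/mt- both probe sets overlapped. Within wt-/mt- the brightest set spanned 0.32, below the median span of 0.50 over all kept genes there.

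Tyrobp encodes DAP12, a membrane adaptor with an ITAM that passes signals from TREM and related receptors to the kinase SYK. Its only probe set read 5.69, 6.05 and 6.15 in wt+/mt+ and 6.06, 5.83 and 6.20 in wt-/mt+. It read 6.34, 5.88 and 6.18 in wt+/mt-. In wt-/mt- it read 10.25, 6.71 and 6.94. Replicate 1 stood 3.90 above the highest of the 9 arrays with an allele, while replicates 2 and 3 stood only 0.37 and 0.60 above it. The mean of wt-/mt- was 7.97 ± 1.98 (SD, n = 3), and its difference of 2.00 from wt+/mt+ (4.01-fold) dropped to 0.86 when replicate 1 was left out.

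Mpeg1 encodes perforin-2, which forms pores in engulfed bacteria. Its probe set read 7.03, 6.85 and 6.81 in wt+/mt+ and 6.72, 6.67 and 7.19 in wt-/mt+. It read 7.41, 6.88 and 6.71 in wt+/mt-. The wt-/mt- arrays gave 9.04, 10.37 and 12.56. Every wt-/mt- array was more than 1 above the highest other array, with gaps of 1.63, 2.97 and 5.15, which held for 0.14% of all kept genes. The wt-/mt- mean of 10.66 ± 1.78 (SD, n = 3) was 3.76 above wt+/mt+ (13.6-fold), 3.80 above wt-/mt+ and 3.66 above wt+/mt-.

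Cd68 encodes a heavily glycosylated protein of late endosomes and lysosomes that is widely used to stain macrophages. Its probe set read 5.66, 6.27 and 6.41 in wt+/mt+ and 6.12, 5.38 and 5.69 in wt-/mt+. It read 7.75, 6.60 and 7.20 in wt+/mt-. In wt-/mt- it read 6.67, 9.28 and 8.17. Replicates 2 and 3 of wt-/mt- were above every other array, and replicate 1 lay within the values of wt+/mt-. The mean of wt-/mt-, 8.04 ± 1.31 (SD, n = 3), was 1.93 above wt+/mt+ (3.80-fold), 2.31 above wt-/mt+ and 0.86 above wt+/mt-.

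For Mpeg1 and Cd68, the 250 bases before their annotated starts are shown, from RefSeq on GRCm38.p6, printed 5′ to 3′ on the gene's strand. These 2 genes were taken because their windows overlap no annotated gene. The windows are chr19:12460520-12460769 on the plus strand for Mpeg1 and chr11:69666171-69666420 on the minus strand for Cd68. Capitals mark matches on either strand to 4 motifs, namely GTAAACA (forkhead), GAGGAA (ETS factors of the PU.1 type), TGANTCA (AP-1) and CACGTG (an E-box bound by MYC).
Mpeg1: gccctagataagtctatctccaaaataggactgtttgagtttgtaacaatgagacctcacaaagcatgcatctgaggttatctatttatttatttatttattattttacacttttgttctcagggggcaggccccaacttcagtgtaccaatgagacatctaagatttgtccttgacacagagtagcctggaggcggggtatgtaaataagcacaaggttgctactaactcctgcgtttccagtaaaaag
Cd68: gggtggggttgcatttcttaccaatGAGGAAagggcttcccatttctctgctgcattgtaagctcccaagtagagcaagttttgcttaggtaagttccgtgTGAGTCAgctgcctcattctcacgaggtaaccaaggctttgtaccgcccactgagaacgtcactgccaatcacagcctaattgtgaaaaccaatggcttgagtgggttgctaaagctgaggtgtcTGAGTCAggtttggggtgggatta

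In the Cd68 window, GAGGAA lay at -225 to -220 from the start and TGANTCA at -149 to -143 and again at -24 to -18, and these matches do not overlap each other. The Mpeg1 window held no match. Of 32851 promoter windows in the same table, 3.17% held GTAAACA, 23.3% GAGGAA, 6.75% TGANTCA and 6.02% CACGTG. Windows were matched for 5 of the 9 genes, and those of Csf1, Slc11a1 and Pla2g7 overlap an annotated gene and are not printed. Windows on chromosome 18, where Csf1r lies, were not read. The window of Slc11a1 (to 74375202) runs into Slc11a1 itself, annotated from 74375014. That of Pla2g7 (from 43568201) lies inside Pla2g7, annotated from 43567994. Slc11a1 held GAGGAA at -152 to -147 from the end of its window, which is inside the annotated gene. The windows of Csf1 and Pla2g7 held no match. A match is a stretch of letters, and binding of a factor was not measured here.

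Slc11a1 encodes NRAMP1, a metal ion transporter of the phagosome membrane known for resistance to intracellular bacteria. Its probe set read 9.91, 10.04 and 10.19 in wt+/mt+ and 9.58, 10.65 and 9.20 in wt-/mt+. It read 10.89, 8.99 and 11.11 in wt+/mt-. The wt-/mt- arrays gave 11.93, 12.65 and 13.44. All 3 wt-/mt- arrays were above every other array, by 0.82, 1.55 and 2.33, and it was also well above the array median in every other genotype. The wt-/mt- mean of 12.68 ± 0.76 (SD, n = 3) was 2.63 above wt+/mt+ (6.18-fold), 2.87 above wt-/mt+ and 2.35 above wt+/mt-. The last value became 1.57 without replicates 1 and 2 of wt+/mt-, the arrays with the high actin difference.

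Pla2g7 encodes a secreted phospholipase A2 that breaks down platelet-activating factor, and all its arrays were lower when either allele alone was lost than with both. Its probe set read 6.71, 6.81 and 6.93 in wt+/mt+ and 4.96, 5.24 and 5.23 in wt-/mt+. It read 6.00, 6.00 and 6.17 in wt+/mt-. In wt-/mt- it read 6.69, 9.38 and 8.74. The 3 genotypes with an allele did not overlap with each other, and replicate 1 of wt-/mt- stayed at the level of wt+/mt+. The means were 6.82 ± 0.11, 5.14 ± 0.16, 6.06 ± 0.10 and 8.27 ± 1.40 in the same order (SD, n = 3). The wt-/mt- mean was 1.45 above wt+/mt+ (2.73-fold), 3.13 above wt-/mt+ (8.73-fold) and 2.21 above wt+/mt-. The array medians lay above Pla2g7 on every array of wt-/mt+ and wt+/mt-, so these values are those of a dim probe set.

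Lgals1 encodes galectin-1, a secreted lectin that binds galactose-bearing glycans. The brighter of its probe sets (1455439_a_at) read 7.29, 7.50 and 7.69 in wt+/mt+ and 7.34, 7.53 and 6.81 in wt-/mt+. It read 8.81, 7.21 and 8.53 in wt+/mt-. Without either allele it read 12.82, 11.85 and 8.20. Replicates 1 and 2 of wt-/mt- were 4.01 and 3.04 above the highest other array, and replicate 3 lay within wt+/mt-. The wt-/mt- mean of 10.95 ± 2.44 (SD, n = 3) was 3.46 above wt+/mt+ (11.0-fold), 3.73 above wt-/mt+ and 2.77 above wt+/mt-. The other probe set, 1419573_a_at, read 12.05, 11.02 and 7.28 in wt-/mt-, the same order of arrays.

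Cotl1 encodes a coactosin-like protein that binds filamentous actin. Its brightest probe set (1436838_x_at) read 9.06, 9.20 and 9.19 in wt+/mt+ and 9.47, 8.72 and 9.19 in wt-/mt+. It read 9.43, 8.86 and 8.39 in wt+/mt-. Without either allele it read 11.62, 9.59 and 13.43. Replicates 1 and 3 stood 2.15 and 3.96 above the highest other array, and replicate 2 only 0.12. The wt-/mt- mean of 11.55 ± 1.92 (SD, n = 3) was 2.40 above wt+/mt+ (5.26-fold), 2.42 above wt-/mt+ and 2.65 above wt+/mt-. All 6 Cotl1 probe sets put the wt-/mt- arrays in this order, with replicate 3 highest and replicate 2 lowest, and their differences from wt+/mt+ ran from 1.38 to 2.51.

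Different genes were thus high on different wt-/mt- arrays. A gene was counted on an array when it lay more than 1 above the highest of the 9 arrays with an allele. On replicate 1, these were Tyrobp, Mpeg1, Lgals1 and Cotl1, 4 of 9, beside 0.96% of all kept genes. On replicate 2, Mpeg1, Cd68, Slc11a1, Pla2g7 and Lgals1 passed, 5 of 9, beside 1.5%. On replicate 3, Mpeg1, Slc11a1, Pla2g7 and Cotl1 passed, 4 of 9, beside 1.45%. Csf1 was more than 1 below the lowest of the 9 arrays on all 3, with gaps of -3.17, -2.38 and -3.21, beside 2.83%, 1.44% and 3.68% of all genes below on those arrays. These shares describe the choice of the genes and were read no further.

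**Figure D2:**
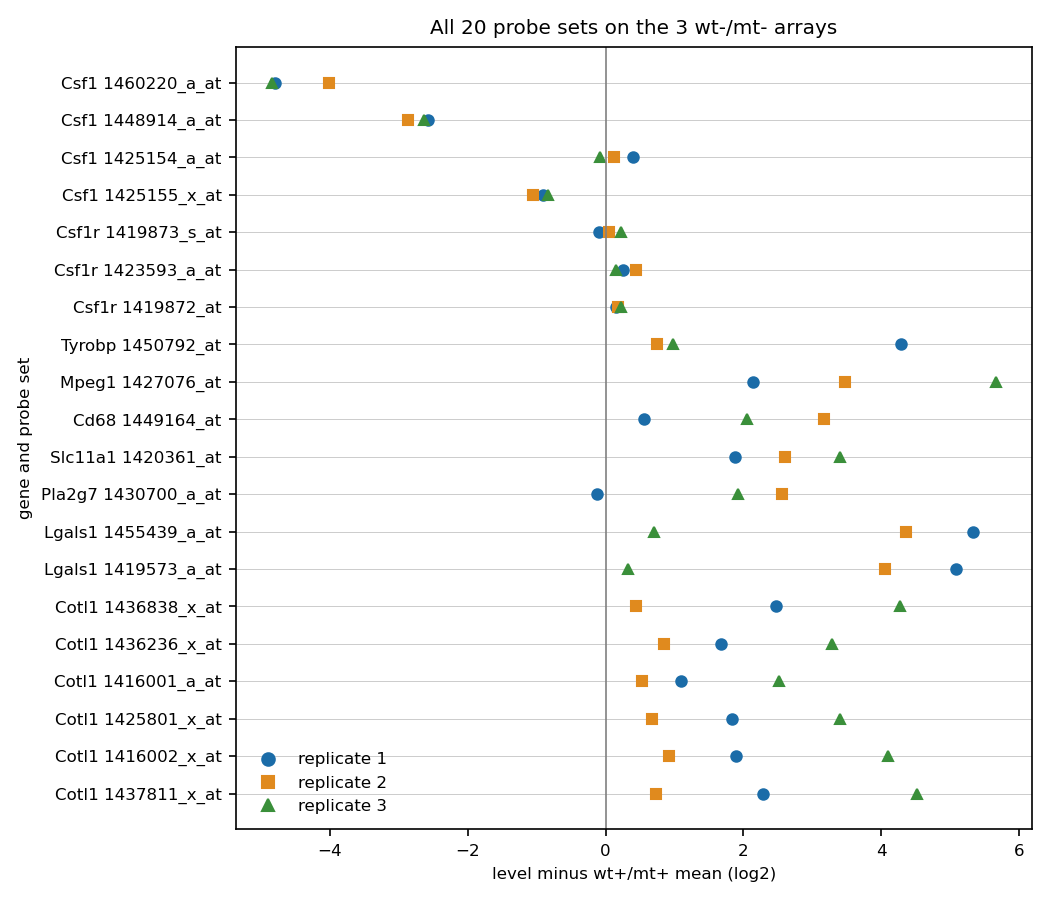
Level of each of the 20 probe sets on each wt-/mt- array minus the wt+/mt+ mean of that probe set (log2), 1 row per probe set and 1 symbol per replicate. The 6 Cotl1 rows share 1 order of replicates and the Lgals1 rows another, Tyrobp stands out on replicate 1 only, and 1 of the Csf1 rows (1425154_a_at) lies near 0 with those of Csf1r.

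Counted by gene, Mpeg1 passed on 3 arrays, Slc11a1, Pla2g7, Lgals1 and Cotl1 on 2, and Tyrobp and Cd68 on 1. Of all kept genes, 0.14%, 0.384% and 2.72% passed on 3, 2 and 1 arrays. The array that was highest also differed. It was replicate 1 for Tyrobp and Lgals1, replicate 2 for Cd68 and Pla2g7, and replicate 3 for Mpeg1, Slc11a1 and Cotl1. Leaving out the highest array lowered the difference from wt+/mt+ most for Tyrobp, from 2.00 to 0.86, and the other genes remained above wt+/mt+ with any 1 array left out, down to 0.89 for Pla2g7, 1.31 for Cd68, 1.45 for Cotl1, 2.24 for Slc11a1, 2.53 for Lgals1 and 2.81 for Mpeg1.

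The spread among the wt-/mt- arrays, as the highest minus the lowest array, was 4.62 for Lgals1, 3.84 for Cotl1, 3.54 for Tyrobp and 3.52 for Mpeg1. It was 2.69 for Pla2g7, 2.61 for Cd68 and 1.51 for Slc11a1, and it was smallest for Csf1 (0.83) and Csf1r (0.32). The median over all kept genes was 0.50 in wt-/mt- and 0.18, 0.21 and 0.25 in wt+/mt+, wt-/mt+ and wt+/mt-. A spread above 2 was read for 6 of the 9 genes in wt-/mt-, beside 3.32% of all kept genes. The genes were chosen for their levels on these same arrays, so this share partly describes the choice. In the genotypes with an allele, only Slc11a1 in wt+/mt- passed 2, at 2.12, beside 0.236% of genes there. Slc11a1, Lgals1 (1.60) and Cd68 (1.15) all had their lowest wt+/mt- value in replicate 2. The spread of wt-/mt- was not confined to these genes, and whether clones, cultures or handling stand behind it was not tested.

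**Figure D3:**
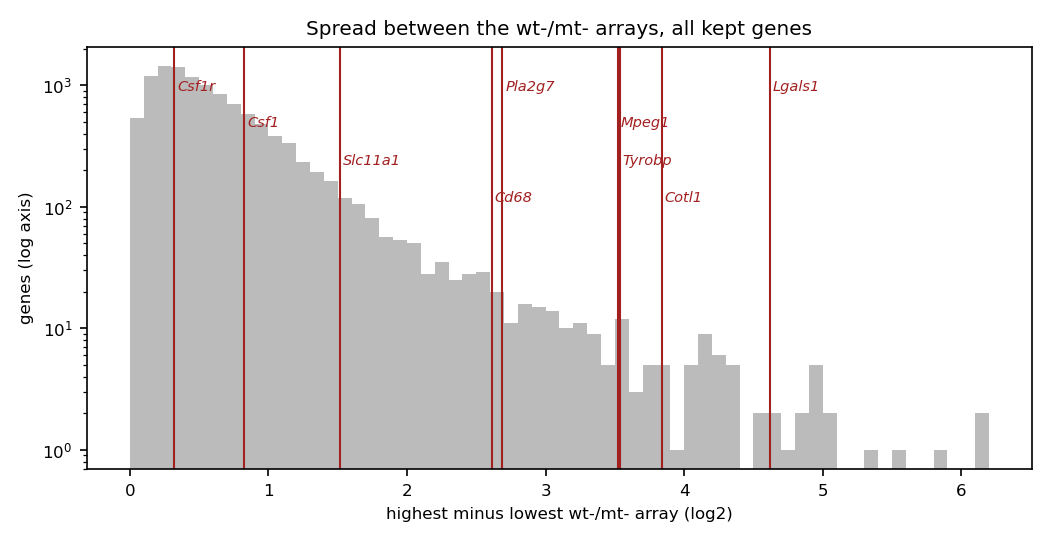
Number of kept genes (log axis) by the highest minus the lowest wt-/mt- array (log2), as a histogram, with a line at the value of each of the 9 genes. Csf1r (0.32) lies among the bulk of genes, around the median of 0.50, and the lines of Lgals1 (4.62), Cotl1 (3.84), Tyrobp (3.54) and Mpeg1 (3.52) lie in its upper tail.

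Correlation over the 12 arrays followed the division by highest wt-/mt- array only in part. It is given as a description, since the arrays share 4 genotypes and the genes were chosen for their levels in wt-/mt-. Mpeg1 correlated with Slc11a1 and Cotl1 at r = 0.87 each, and with Pla2g7 at 0.81. Tyrobp correlated best with Lgals1, at 0.81, and only at 0.22 with Cd68. Cd68 and Pla2g7 gave 0.79, and Lgals1 and Cotl1 gave 0.39. Among the 7 genes that were higher in wt-/mt-, pairs with the same highest array gave 0.71 to 0.87. The other pairs gave 0.22 to 0.81, so the ranges overlapped. Csf1 gave negative values with these 7 genes, from -0.68 with Pla2g7 to -0.89 with Mpeg1. The sign of those values was largely set by the choice of the genes. Csf1r stayed between -0.19 and 0.41 with every other gene.

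Genes elsewhere on the array followed single members closely. Over the 12 arrays, the genes most like Csf1 were Pim1, Clint1 and Trp53inp1 (Pearson r = 0.98 each), of which Trp53inp1 was at 11.81 or above on the 9 arrays with an allele and read 9.92, 10.12 and 8.98 in wt-/mt-. Lyst (0.98), Slc29a3 (0.97) and Chka (0.96) were most like Tyrobp, and Lyst, a regulator of lysosome size, read 10.62, 8.13 and 8.30 in wt-/mt- against at most 8.05 elsewhere. Spats2 led for Pla2g7 (0.93) and read 6.55, 9.24 and 8.14 in wt-/mt-, followed by Sgta and Mrps27 (0.93 each). Cd9, a tetraspanin, was most like Cotl1 (0.95) with 7.77, 6.61 and 8.37 in wt-/mt- against at most 6.15 elsewhere, followed by Tubb3 (0.95) and Prex1 (0.94).

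The remaining members had these nearest genes. Morc3 (0.98), Copg1 and Fasn (0.97 each) were most like Mpeg1. Ctdnep1 (0.98), Add1 (0.97) and Glb1 (0.96), the last a lysosomal beta-galactosidase, were most like Cd68. Bbx (0.93), Itga4 and Chn1 (0.92 each) were most like Slc11a1. Sowahc, Arhgap21 (0.96 each) and Fam219a (0.95) were most like Lgals1. Mmp7 (0.95), Rnf222 (0.92) and Tmem191c (0.89) were most like Csf1r, whose own range was small.

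The comparisons without wt-/mt- ask what the loss of a single allele did to these genes, and here each gene was tested with limma over all kept genes. They share arrays with the comparisons by which the genes were chosen. By limma, 0 of the 9 genes were called in wt-/mt+ against wt+/mt+, where 0% of all genes were called, and 1 of the 9 (Pla2g7) and 412 of all genes had an unadjusted p under 0.05. In wt+/mt- against wt+/mt+, limma called 0 of the 9 and 0.183% of all genes, and 1 of the 9 (Csf1) and 1704 of all genes had an unadjusted p under 0.05. In wt-/mt+ against wt+/mt-, limma called 0 of the 9 and 0.0873% of all genes, and 2 of the 9 (Csf1 and Cd68) and 1881 of all genes had an unadjusted p under 0.05. A p-value that misses the threshold does not show that a level stayed the same, and the intervals below give what the arrays allow.

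**Figure D4:**
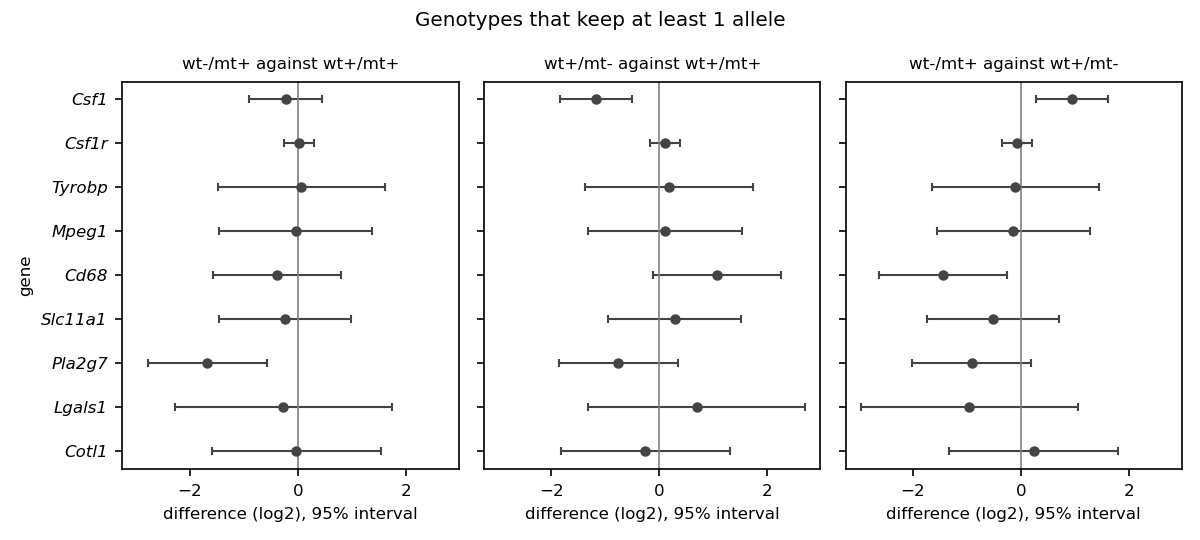
Difference (log2) of the 9 genes in the 3 comparisons between genotypes with at least 1 allele, with the 95% confidence interval from limma as a bar. Pla2g7 lies lowest in wt-/mt+ against wt+/mt+, at -1.68, Csf1 lowest in wt+/mt- against wt+/mt+, at -1.17, and the intervals of Lgals1, Cotl1 and Tyrobp are wide and include 0.

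Csf1 differed between wt+/mt- and wt+/mt+ by -1.17 ± 0.30 (SE, 95% interval -1.84 to -0.50, limma adjusted p = 0.118), with no overlap of arrays. Arrays were lower without overlap for 11.4% of all genes in that comparison. The other Csf1 probe sets did not all read this difference. It was -0.80 on 1448914_a_at and -0.61 on 1425155_x_at, without overlap, and 0.20 on 1425154_a_at, with overlap. On the brightest probe set the difference was -0.49 with replicate 3 as the only wt+/mt- array, that is without the arrays of high actin difference. Over 18 alternatives the limma adjusted p ran from 0.0174, with 1 weight per genotype, to 0.978, without those arrays. Csf1 was 0.94 ± 0.30 higher in wt-/mt+ than in wt+/mt- (limma adjusted p = 0.174, from 0.0434 to 1.00 over the alternatives), without overlap, which 14.2% of genes showed in that direction. With only the mutant allele, it differed from wt+/mt+ by -0.22 (95% interval -0.89 to 0.45). The actin difference moves with this result, and its part in it was not tested beyond the value given. The levels of the spiked controls BioC, BioD and Cre also differ between these genotypes.

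Cd68 was the reverse. It was 1.07 ± 0.54 higher in wt+/mt- than in wt+/mt+ (95% interval -0.11 to 2.25, limma adjusted p = 0.401), with no overlap, which 21.8% of all genes showed in that direction. It differed by -1.45 ± 0.54 between wt-/mt+ and wt+/mt- (limma adjusted p = 0.218), again without overlap, which 17.6% of genes showed in that direction. With 1 weight per genotype the adjusted p of this difference was 0.0326 and over all alternatives it reached 1.00. Its size was -1.47 when replicate 3 was the only wt+/mt- array. Its difference between wt-/mt+ and wt+/mt+ was -0.38 (95% interval -1.57 to 0.80).

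Pla2g7 differed between the mutant allele alone and both alleles by -1.68 ± 0.50 (SE, 3.20-fold, 95% interval -2.78 to -0.58, limma adjusted p = 1.00). All 3 arrays were lower, which 6.64% of all genes showed in that direction. The SE comes from a spread shared by the 4 genotypes, and the SD of Pla2g7 was 1.40 in wt-/mt- but 0.16 and 0.11 in the genotypes compared. With 1 weight per genotype the adjusted p was 0.00344, without wt-/mt- replicate 1 it was 0.00801, and over all 17 alternatives it ran up to 1.00. Against wt+/mt-, wt-/mt+ differed by -0.92 ± 0.50 (limma adjusted p = 0.394, with 0.0367 with 1 weight per genotype, 0.0373 without wt-/mt- replicate 1 and 1.00 at most). The level of wt+/mt- differed from wt+/mt+ by -0.76 ± 0.50 (95% interval -1.86 to 0.34, limma adjusted p = 0.547, from 0.0512 to 1.00 over the alternatives).

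On their brightest probe sets, the other 6 genes overlapped between genotypes in all 3 of these comparisons. Among their other probe sets, 4 of the 1 gene Cotl1 were higher without overlap in wt+/mt- than in wt+/mt+, which 21.8% of all genes showed. Cotl1 on 1416001_a_at and Csf1r on 1423593_a_at were lower without overlap in wt-/mt+ than in wt+/mt-, by -0.24 and -0.22. Of all genes, 17.6% were lower without overlap there. The difference of wt-/mt+ from wt+/mt+ was -0.04 for Mpeg1 (95% interval -1.45 to 1.38), -0.24 for Slc11a1 (-1.47 to 0.99) and 0.07 for Tyrobp (-1.48 to 1.62). These intervals rest on a spread shared by all 4 genotypes, wt-/mt- included, and are wide. Lgals1 differed by -0.27 (-2.27 to 1.74). Cotl1 differed by -0.02 (-1.58 to 1.53), and its other 5 probe sets gave 0.10 to 0.18. Csf1r differed by 0.03, and its interval of -0.25 to 0.31 was the narrowest of the 9 genes. The difference of wt+/mt- from wt+/mt+ was 0.69 for Lgals1 (-1.32 to 2.70), 0.28 for Slc11a1 (-0.94 to 1.51) and 0.10 for Mpeg1 (-1.31 to 1.52). It was 0.17 for Tyrobp (-1.38 to 1.72) and 0.10 for Csf1r (-0.17 to 0.38). For Cotl1 it was -0.26 (-1.82 to 1.30) on the brightest probe set, -0.37 on 1437811_x_at and 0.34 to 0.41 on the other 4, so its direction depended on the probe set.

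Lists of related genes were then read in wt-/mt- against wt+/mt+, where 12.2% of all kept genes rose and 9.94% fell by limma, with a median difference of 0.05. With each array centred on its median, 880 genes rose and 1475 fell in place of 1396 and 1139. These counts describe the lists and were not tested as sets. The comparison crosses the split of the spiked controls, so counts against wt+/mt- are given after the lists. Of 24 phagocytic and opsonin receptors, 12 were kept, 1 rose and 2 fell, with a median of 0.09. Siglec1, a sialic acid-binding receptor of macrophages, rose by 0.66 ± 0.12 (SE). Its mean was 7.14 in wt-/mt- and 7.10 in wt+/mt-, a difference of 0.04 (limma adjusted p = 0.865). Between wt+/mt- and wt+/mt+ it differed by 0.62 (limma adjusted p = 0.0638). Fcgr2b, the inhibitory Fc receptor of B cells, and Itgb2, an integrin chain of leukocytes, changed by -0.80 ± 0.19 and -0.56 ± 0.13. Of 22 lysosomal and secreted enzymes of macrophages, 14 were kept, 1 rose and 4 fell, with a median of -0.32. Acp5 (tartrate-resistant acid phosphatase), Ctss (cathepsin S), Npc2 (a cholesterol carrier) and Ctsz (cathepsin Z) changed by -1.72 ± 0.20, -1.08 ± 0.20, -0.88 ± 0.22 and -0.47 ± 0.10, and Lipa (lysosomal acid lipase) by 0.56 ± 0.18. With median-centred arrays, 0 of the list rose and 5 fell. The lysosomal enzymes that limma called were thus mostly lower in the genotype where Cd68 and Slc11a1 were higher. Those 2 genes were read without a test, so the measures differ. Ctsc (cathepsin C), named after its value was seen, was not called, at 0.86 ± 0.33 (limma adjusted p = 0.0837). It read 12.62, 10.91 and 11.72 in wt-/mt-, and replicate 1 was more than 1 above the highest other array.

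Of 23 CSF1 receptor ligands and signalling genes, 18 were kept and 3 rose, with a median of 0.31. They were the adaptor Grb2 (0.52 ± 0.17, SE), the kinase Fgr (0.46 ± 0.12) and Stat3 (0.38 ± 0.09). With median-centred arrays, 1 of the list rose and 1 fell. The other ligand of the receptor, Il34, was not kept and read 4.69 ± 0.20 in wt+/mt+ and 5.20 ± 0.15 in wt-/mt- (SD, n = 3). Of 24 ITAM adaptors, partners of Tyrobp and proximal kinases, 12 were kept, 2 rose and 2 fell, with a median of -0.09. Hcst, which encodes the related adaptor DAP10, rose by 1.32 ± 0.24 and the kinase Zap70 by 0.48 ± 0.11. Syk, the kinase that DAP12 recruits, changed by -1.52 ± 0.35 and the B cell receptor chain Cd79b by -0.96 ± 0.24.

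Of 22 myeloid transcription factors, 16 were kept, 2 rose and 6 fell, with a median of 0.04. Maf, Fli1 and Zeb2 changed by -3.09 ± 0.28, -1.59 ± 0.22 and -1.56 ± 0.38 (SE), and Id2, an inhibitor of helix-loop-helix factors, rose by 2.06 ± 0.55. The list of 32 genes related to the 9 by family or function, called paralogs for short, had 19 kept and a median of -0.11. Of these, Dstn, an actin-depolymerising protein of the ADF homology family to which Cotl1 also belongs, rose by 0.70 ± 0.12. Pafah1b3, a subunit of an intracellular enzyme that also breaks down platelet-activating factor, changed by -0.62 ± 0.18. Lamp1, a lysosomal membrane glycoprotein related to CD68, changed by -0.51 ± 0.15. With median-centred arrays, 1 paralog rose and 4 fell. In wt-/mt- against wt+/mt-, within 1 side of the split, 728 of all kept genes rose and 942 fell by limma. There the receptors had 0 that rose and 1 that fell, the lysosomal enzymes 0 and 3, and the CSF1 receptor genes 0 and 1. The ITAM genes had 0 and 0, the transcription factors 1 and 6 and the paralogs 2 and 1. The median of the CSF1 receptor genes was 0.11.

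With 1 weight per genotype, which lets wt-/mt- have its own spread, the counts against wt+/mt+ were lower. The receptors then had 0 that rose and 1 that fell, the lysosomal enzymes 0 and 2, the CSF1 receptor genes 0 and 0, the ITAM genes 1 and 2, the transcription factors 2 and 3 and the paralogs 1 and 0. Leaving out single arrays moved the lysosomal count from 5 to 3 (wt+/mt+ replicate 2 or 3), the CSF1 receptor count from 3 to 1 (wt+/mt+ replicate 1 or 3) or 7 (wt-/mt- replicate 3), and the paralog count from 3 to 1 (any wt+/mt+ array), 6 (wt-/mt- replicate 1) or 5 (wt-/mt- replicate 2).

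**Figure D5:**
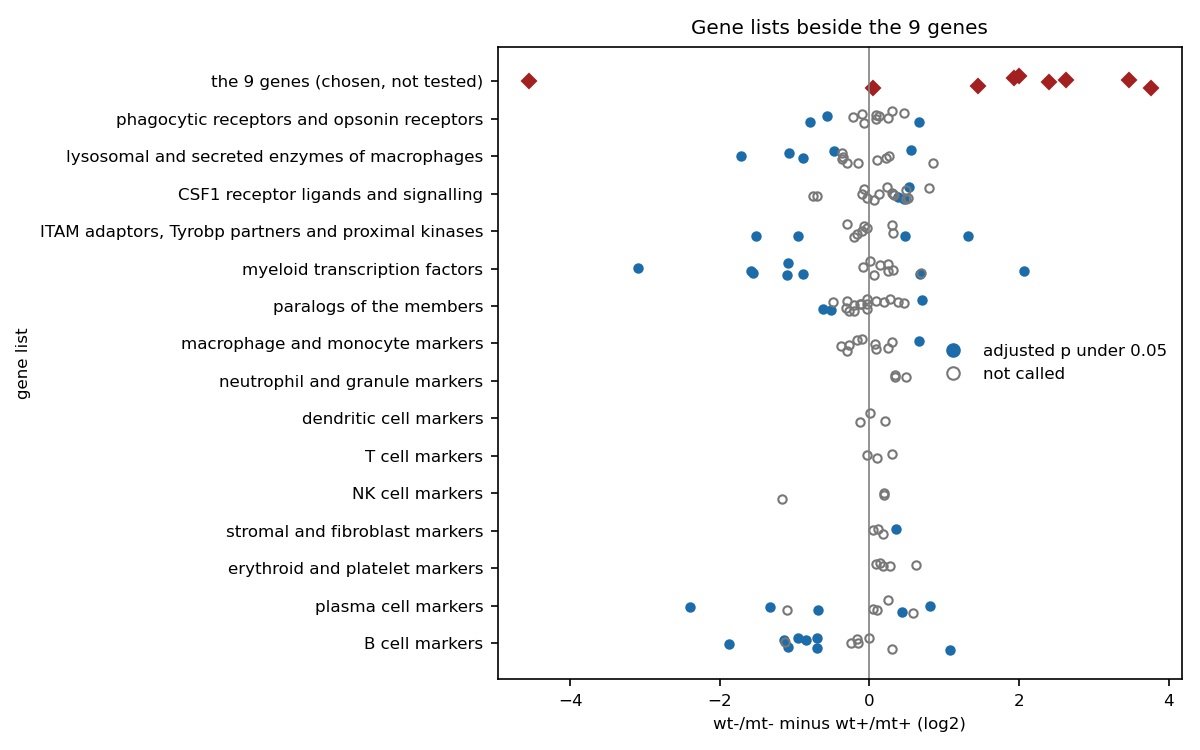
Difference (log2) between wt-/mt- and wt+/mt+ of each kept gene of the 15 lists, 1 row per list, filled where limma called it, with the 9 genes as diamonds in the top row. The 10 macrophage and monocyte markers lie around a median of -0.01 and the 14 B cell markers around -0.70, and the 9 genes reach from -4.55 for Csf1 to 3.76 for Mpeg1.

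Of 26 macrophage and monocyte markers other than the 9 genes, 22 were on the array. Their mean level was 5.62 to 5.65 on the wt+/mt+ arrays and 5.66 to 5.70 on the wt-/mt- arrays, below the array medians. Between 8 and 9 of the 22 lay above the array median in wt+/mt+, and between 7 and 8 did in wt-/mt-. Lyz2, Cd14, Itgam, Cx3cr1, Mrc1, Marco, Cd163, C1qa, C1qb, C1qc, Clec4d and Clec4e were above it on fewer than 3 arrays. Of the 10 kept, Siglec1 rose and none fell by limma against wt+/mt+, with a median difference of -0.01. Against wt+/mt-, 0 rose and 0 fell by limma, and Siglec1 differed by 0.04. On every wt-/mt- array, 0 of the kept markers were more than 1 above the other genotypes. The brightest were Adgre1, Ccr2 and Siglec1, with mean levels of 6.91, 6.89 and 6.84. By limma, 4 of the 10 had an unadjusted p under 0.05 against wt+/mt+. The share of all kept genes at that unadjusted threshold was not counted, so the 4 are read no further. At the adjusted threshold, 12.2% of all kept genes rose and 9.94% fell. With 1 weight per genotype 0 were called, and without wt-/mt- replicate 1 or 2 the count was 2.

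Markers of other cells were read in the same way. In wt-/mt- against wt+/mt+, limma called 0 of 3 kept neutrophil markers, 0 of 3 dendritic cell, 0 of 3 T cell, 0 of 3 NK cell and 0 of 5 erythroid and platelet markers. At an unadjusted p under 0.05 these were 2, 0, 1, 0 and 1, again with no share of all genes counted beside them. The medians of the lists were 0.35, 0.01, 0.10, 0.20 and 0.19. Without wt-/mt- replicate 2, 2 neutrophil markers were called higher, and without wt-/mt- replicate 3 or wt+/mt+ replicate 2, 1 was. A T cell marker was called higher without wt-/mt- replicate 3, and an erythroid and platelet marker without wt-/mt- replicate 1 or 2. Of 4 kept stromal markers, Sparc rose by 0.36 ± 0.09, and 0 were called with median-centred arrays or against wt+/mt-. Among 10 kept plasma cell markers, 2 rose and 3 fell, with a median of 0.08. Slamf7 changed by -2.40 ± 0.62 and Xbp1 by -1.33 ± 0.26, and those that rose, named after their values were seen, were Ell2 (0.82 ± 0.24) and Fkbp11 (0.43 ± 0.10). Among 14 B cell markers, 1 rose and 7 fell, with a median of -0.70, led by Blk at -1.87 ± 0.45 and Ighm at -1.14 ± 0.25. Cr2, named after its value was seen, rose by 1.07 ± 0.35. With the other scalings, without the filter, or without any 1 array of a genotype with an allele, 0 B cell markers were called higher. The mean B cell marker level was 11.62 to 11.68 in wt+/mt+ and 10.85 to 11.42 in wt-/mt-. With 1 weight per genotype, 0 plasma cell markers rose and 2 fell, and 0 B cell markers rose and 4 fell. The fit without weights gave the same counts for both lists against wt+/mt-. Without a single wt+/mt+ array, the plasma cell count was 3 and the B cell count 3 or 4. The part of these shifts in the levels of the 9 genes was not tested.

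On the wt-/mt- arrays, the median difference from wt+/mt+ of the other genes on each gene's chromosome lay between -0.31 and 0.26. Csf1r, at -0.10, 0.04 and 0.22, and Pla2g7 on replicate 1, at -0.13, lay in that range. Csf1 and Foxo1 lie on the same chromosome, 3, where those medians were 0.09, 0.08 and -0.19, while Csf1 itself differed by -4.80, -4.01 and -4.84. A change limited to part of a chromosome may not show in such a median and was not tested.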

How the data were processed

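The values are log2 expression per probe set for 45101 probe sets on 12 arrays, as deposited by the authors. They used RMA, per the submitters' processing notes, which give no version. RMA equalises the arrays, which removes most of any shift common to an array. The log2 scale was read from the values, 3.09 to 15.57, and from the usual output of RMA. Gene names come from the platform annotation at GEO: of the probe sets, 34958 carry 1 gene, 932 carry several genes (left unnamed here), and 9211 are unnamed. No pair of arrays held identical values.

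A gene stands for its brightest probe set by mean over the arrays, and was kept where this lay above the array median in at least 3 arrays, which left 11458 genes. The test was limma 3.58.1 under R 4.3.3, lmFit and eBayes on all 12 arrays with a mean for each genotype. A call needed a p under 0.05 after Benjamini-Hochberg adjustment across the kept genes. The other probe sets come from the values themselves. Errors are SE of differences or SD over 3 arrays, and the number of arrays limits the precision. The fit was tested on simulated data. The alternatives were other scalings, weights per genotype (arrayWeights), no filter, and arrays left out.

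The 9 genes and the 15 lists (288 entries, 262 on the array) were chosen with earlier results of these data known. Named genes are Foxo1, the 9 genes, up to 4 called genes per pathway list by size of change, up to 3 markers per cell type by level and up to 2 by change, and the 3 genes most correlated with each of the 9. Promoter sequences and symbols are from RefSeq (GRCm38.p6).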

Additional observations from a re-analysis of the deposited data

Results flagged for a closer look

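The Pla2g7 differences that go with the loss of an allele had opposite signs with and without the other allele. Loss of the wild-type allele went with a difference of -1.68 where T24P was present and of 2.21 where it was absent. Loss of the T24P allele went with a difference of -0.76 where the wild-type allele was present and of 3.13 where it was absent. Every array lay on the same side within each of these comparisons, and the difference between them was not tested, since the gene was chosen for its level in wt-/mt-. The SD of Pla2g7 was 1.40 in wt-/mt- and 0.10 to 0.16 in the other genotypes (n = 3). Both comparisons for the T24P allele cross the split of the spiked controls BioC, BioD and Cre, which cannot be told apart from the loss of T24P. All Pla2g7 values of wt-/mt+ and wt+/mt- lay below the array medians. In wt-/mt-, replicate 1 read 6.69, against 6.71 to 6.93 in wt+/mt+.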

How the results depend on the processing

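No paired analysis was possible because the array numbers of the labels run on through the series and no number is shared between genotypes. The causes of the shifts below were not tested.

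On the brightest probe set, Csf1 stayed lower and the 7 genes other than Csf1r stayed higher in wt-/mt- under all alternatives run, in each of the 3 comparisons. The smallest of these differences was 0.24, for Cd68 against wt+/mt-.

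The 9 genes had 0 calls in each comparison without wt-/mt-. With 1 weight per genotype, 1 was called in wt-/mt+ against wt+/mt+ (Pla2g7), 1 in wt+/mt- against wt+/mt+ (Csf1) and 3 in wt-/mt+ against wt+/mt- (Csf1, Cd68 and Pla2g7). Leaving out single arrays gave 0 to 1, 0 to 0 and 0 to 1, where the 1 was Pla2g7 without wt-/mt- replicate 1.

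Over all genes, wt-/mt- against wt+/mt+ had 2535 calls, 866 with weights and 1254 to 3138 with arrays left out (1481, 1254 and 1300 without wt+/mt+ replicates 1, 2 and 3). Wt-/mt- against wt-/mt+ had 2386 calls, 923 with weights and 1118 to 2987 with arrays left out (1443, 1118 and 1419 without wt-/mt+ replicates 1, 2 and 3). With median-centred arrays it had 855 higher and 1475 lower in place of 1117 and 1269. Wt-/mt- against wt+/mt- had 1670 calls, 399 with weights, 118 with replicate 3 as the only wt+/mt- array, and 664 to 2536 with arrays left out (700 and 664 without wt+/mt- replicates 1 and 2, 2536 without wt-/mt- replicate 2). Wt-/mt+ against wt+/mt+ had 0 calls, 1 with median-centred arrays, 19 with weights and 0 to 1 with arrays left out.

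Wt+/mt- against wt+/mt+ had 21 calls, 9 with quantile normalization, 10 with median-centred arrays, 950 with weights, 100 without the filter, 2 with replicate 3 as the only wt+/mt- array and 0 to 151 with arrays left out. Wt-/mt+ against wt+/mt- had 10 calls, 3 with median-centred arrays, 835 with weights, 2 with replicate 3 as the only wt+/mt- array and 0 to 232 with arrays left out. In both, the highest counts came without wt-/mt- replicate 3, and 98 and 113, or 70 and 101, came without replicates 2 and 1. Leaving out any array except wt+/mt- replicate 3 moved the count of the former by over 1.5 times, and leaving out any array did so for the latter.

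The direction changed for the following differences. None of them was called with the settings of the report, and that of wt-/mt- was not tested. Csf1 on 1425154_a_at gave 0.15 for wt-/mt- against wt+/mt+, 0.23 for wt-/mt+ against wt+/mt+ and 0.20 for wt+/mt- against wt+/mt+. In wt-/mt+ against wt+/mt+, Csf1r gave -0.077 on 1419872_at, -0.0048 with median-centred arrays and -0.0016 centred per chromosome. With arrays left out in that comparison, Csf1r gave -0.040 to 0.14, Tyrobp -0.066 to 0.17, Mpeg1 -0.20 to 0.058, Slc11a1 -0.66 to 0.067 and Cotl1 -0.20 to 0.18. Other Cotl1 probe sets gave 0.17, 0.16, 0.18, 0.10 and 0.13.

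In wt+/mt- against wt+/mt+, with replicate 3 as the only wt+/mt- array, Csf1r gave -0.022 and Mpeg1 -0.18. With arrays left out, Mpeg1 gave -0.10 to 0.25 and Slc11a1 -0.11 to 0.95. Other Cotl1 probe sets gave 0.41, 0.34, 0.37 and 0.39. In wt-/mt+ against wt+/mt-, with replicate 3 as the only wt+/mt- array, Csf1r gave 0.049 and Mpeg1 0.15. With arrays left out, Csf1r gave -0.14 to 0.011, Tyrobp -0.23 to 0.00069, Mpeg1 -0.31 to 0.064 and Cotl1 -0.018 to 0.50. Other Cotl1 probe sets gave -0.24, -0.18, -0.19 and -0.29. Where an arm is left with 1 array, that array is assumed to vary like the other genotypes.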
